A study of Rattus norvegicus with 23 samples.

Results

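The 10 genes described here are a set that defines the resting, surveying state of microglia, the resident macrophages of the brain. They are P2ry12, P2ry13, Tmem119, Cx3cr1, Gpr34, Csf1r, Olfml3, Slc2a5, Bin1 and Tgfbr1, listed by name with no threshold on measured values, although the list was drawn up with earlier results of these data known. All 10 of them, among 20301 genes in the table, were measured in every sample. RNA was sequenced from cells that CD11b/c magnetic beads had taken from brains of Wistar rats 24 h after an operation on postnatal day 7. There were 6 samples each in the Sham, NaCl/HI and LPS/HI groups and 5 in the LPS group. Sham pups had an incision of the neck and no injection is listed for them. LPS pups received lipopolysaccharide, a bacterial wall component, at 0.1 mg/kg into the abdomen 4 h before the same sham procedure. NaCl/HI pups received saline and then hypoxia-ischemia (HI), which is ligation of the left carotid artery followed by 50 min at 8% oxygen. LPS/HI pups received the same dose of lipopolysaccharide 4 h before HI. A Sham or LPS sample is the entire brain of 1 pup, while an NaCl/HI or LPS/HI sample pools the ipsilateral hemispheres of 2 pups. HI therefore cannot be told apart from the tissue taken and from pooling in any comparison between an HI group and a group without HI. Since no injection is listed for Sham, the effect of LPS against Sham cannot be told apart from that of an injection.

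In the healthy brain, microglia hold their resting identity through transforming growth factor beta (TGF-β), which signals through the receptor kinase encoded by Tgfbr1 and the SMAD proteins, and they depend for survival on Csf1r, the receptor of CSF1 and IL-34. P2ry12 and P2ry13 are receptors for ADP, and P2ry12 steers the processes of microglia toward injured cells. Cx3cr1 receives the neuronal chemokine CX3CL1, and Gpr34 is a receptor for lysophosphatidylserine. Tmem119 is a surface protein used to tell microglia from other macrophages, Olfml3 encodes a secreted protein, Slc2a5 a fructose transporter and Bin1 a protein that bends membranes in endocytosis. Many of these genes are known to be expressed at a lower level when microglia are activated.

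The values are regularized log2 values (rlog, a transformation that draws weakly expressed genes toward their mean), from which the authors had removed 3 surrogate variables. A difference of values is a log2 difference on this scale, and levels of different genes are not compared because they are not per length. Read counts were not analysed, and sequencing depth is therefore unknown. One library stands apart: LPS/HI replicate 2 kept 7.83% of its own deviation from the group mean after the removal of variables, against 69.2% to 99.3% in the other 22 libraries. Its root mean square deviation from the group mean was 0.049 over all genes, against 0.0911 to 0.164 in the others, and 0.0759 over the 10 genes, against 0.0815 to 0.255. Counts of calls that involve LPS/HI are therefore also given without it, and without it 4.16% of all genes in place of 8.77% were called against Sham, 0.591% in place of 1.94% against LPS and 0.00493% in place of 0.202% against NaCl/HI. The isolated cells carried the markers of microglia and macrophages, and the mean of 12 such genes was 13.48 ± 0.07 (SD, n = 6) in Sham, 13.54 ± 0.04 (n = 5) in LPS, 13.49 ± 0.05 (n = 6) in NaCl/HI and 13.51 ± 0.06 (n = 6) in LPS/HI. C1qa and C1qb, subunits of complement C1q, were among them, with means over all samples of 15.18 and 14.96. The beads also take other macrophages and granulocytes, and Mrc1 and Lyve1, markers of border macrophages, had means of 13.59 and 12.53.

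LPS without HI lowered 6 of the 10 genes 24 h after the sham operation. Bin1, P2ry13, Gpr34, P2ry12, Tgfbr1 and Cx3cr1 fell by between 0.17 and 0.43 on the log2 scale, and none of the 10 rose (limma over all genes, Benjamini-Hochberg adjusted p under 0.05). Of all genes tested, 7.56% were called lower and 10.2% were called higher in this comparison. The median difference of the 10 genes was -0.35, against -0.01 over all genes. In 4 of the 10 genes every LPS sample lay below every Sham sample, as did 5.83% of all genes. In RNA from sorted cells in bulk, fewer cells of a type and less RNA per cell cannot be told apart.

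**Figure D1:**
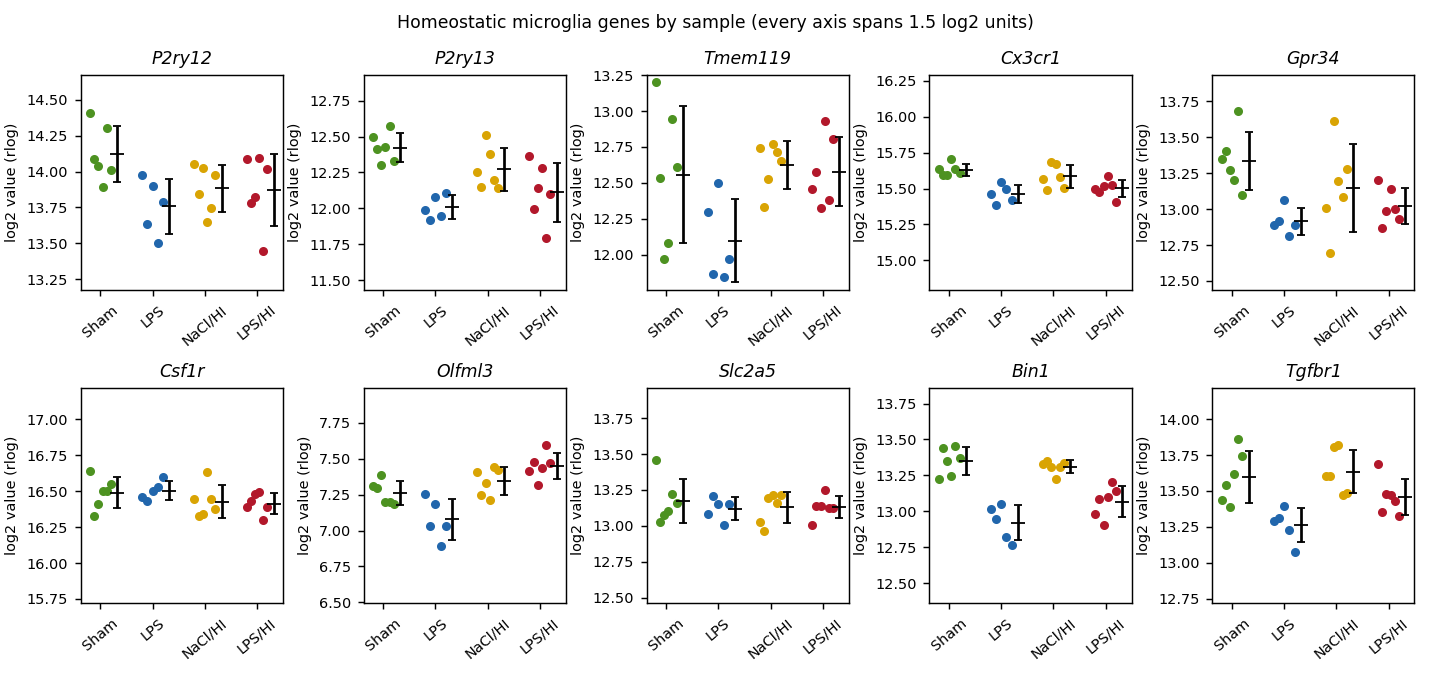
Each panel plots the log2 value (rlog, vertical axis) of 1 gene, with 1 point per sample in the groups Sham, LPS, NaCl/HI and LPS/HI and, beside them, the mean with the SD as a bar. Every axis spans 1.5 log2 units, so heights can be compared between panels, and the LPS points of P2ry13, Cx3cr1, Gpr34 and Bin1 all lie below the Sham points.

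Among the receptors for nucleotides and lipids, P2ry13 separated the groups most clearly. Its values in Sham ranged from 12.30 to 12.57 with a median of 12.42, and in the 5 LPS samples they were 11.99, 11.92, 12.08, 11.95 and 12.10. The highest LPS sample was thus lower than the lowest Sham sample. The difference was -0.42 (SE 0.086, adjusted p = 0.00209), which is 1.33-fold lower. Gpr34 in Sham ranged from 13.10 to 13.68 with a median of 13.31, and the LPS samples had 12.89, 12.92, 13.07, 12.81 and 12.89. Here too the groups did not overlap, although the gap between the highest LPS and the lowest Sham sample was small, and the difference was -0.42 (SE 0.12, adjusted p = 0.0177). P2ry12 in Sham ranged from 13.89 to 14.41 with a median of 14.06, and in LPS the values were 13.97, 13.63, 13.90, 13.50 and 13.79. The 2 highest LPS samples lay within the Sham range. The P2ry12 difference was -0.36 (SE 0.12, adjusted p = 0.0387), and this call was lost without any 1 of Sham replicates 1, 2 or 5 or LPS replicates 2, 4 or 5, with adjusted p between 0.0531 and 0.116.

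P2ry12 and P2ry13 are neighbours in the rat genome, and both lie within the gene Med12l, while Gpr34 lies within Cask. Whether the counting used strand is not stated in the sources used here, so reads of these overlapping genes may not be told apart. Med12l had group means of 11.10 in Sham, 11.01 in LPS, 10.89 in NaCl/HI and 10.90 in LPS/HI, and Cask had 9.74, 9.69, 9.73 and 9.69 in the same order. The part of such reads in the values of P2ry12, P2ry13 and Gpr34 was not tested.

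The promoters of P2ry13 and Gpr34 are shown as those of the nucleotide and lipid receptors whose LPS samples all lay below Sham. Each is a window of 300 bases around the start of the gene in RefSeq's GRCr8 assembly, at chr2:145622735-145623034 on the minus strand and chrX:11785787-11786086 on the minus strand, which is a later assembly than the one used for the values. Capitals mark CAGACA, the CAGA box known to bind SMAD3 and SMAD4, where it occurs.
P2ry13: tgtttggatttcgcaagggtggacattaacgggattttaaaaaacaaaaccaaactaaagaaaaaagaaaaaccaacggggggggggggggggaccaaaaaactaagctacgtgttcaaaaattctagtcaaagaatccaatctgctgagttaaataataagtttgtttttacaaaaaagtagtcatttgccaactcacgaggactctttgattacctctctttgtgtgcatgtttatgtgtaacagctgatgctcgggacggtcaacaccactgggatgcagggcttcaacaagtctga
Gpr34: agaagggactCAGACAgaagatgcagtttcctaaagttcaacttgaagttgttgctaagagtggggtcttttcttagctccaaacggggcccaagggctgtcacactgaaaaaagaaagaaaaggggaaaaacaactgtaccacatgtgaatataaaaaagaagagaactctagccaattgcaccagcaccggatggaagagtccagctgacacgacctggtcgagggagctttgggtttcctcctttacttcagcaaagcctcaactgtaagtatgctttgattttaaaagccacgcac
Of the 10 genes 8 had a promoter in this set, which holds 33469 promoters, and P2ry12 and Tmem119 are named only. CAGACA was found on either strand in 2 of the 8, Gpr34 and Csf1r, and in 21.1% of all promoters. GAGGAAG, a motif of the PU.1 type, was found in 1 of the 8, Csf1r, and in 12.4% of all promoters. TGTGGTT, a motif of the RUNX type, was found in 0 of the 8 and in 5.57% of all promoters. These matches describe letters in these windows only.

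The chemokine receptor Cx3cr1 had the smallest of the called differences and a narrow spread. Sham samples lay between 15.59 and 15.70 with a median of 15.62, and LPS samples had 15.46, 15.38, 15.54, 15.50 and 15.42. No LPS sample reached the Sham range. The difference was -0.17 (SE 0.052, adjusted p = 0.0308), 1.12-fold lower. It missed the threshold without any 1 of Sham replicates 1, 4 or 5 or LPS replicates 1, 2 or 5, with adjusted p between 0.0513 and 0.0922, and in a fit of Sham and LPS alone, with adjusted p = 0.128.

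Of the growth factor receptors, Tgfbr1 was lower with LPS and Csf1r was not called. Tgfbr1 in Sham ranged from 13.39 to 13.86 with a median of 13.58, and the LPS samples had 13.29, 13.31, 13.39, 13.23 and 13.08. The highest LPS sample touched the Sham range and the other 4 lay below it. The difference was -0.34 (SE 0.089, adjusted p = 0.0117). Csf1r in Sham ranged from 16.33 to 16.64 with a median of 16.50, and LPS samples had 16.46, 16.43, 16.50, 16.53 and 16.60. All 5 LPS values of Csf1r lay inside the Sham range, and the difference was 0.02 with a 95% interval from -0.13 to 0.16 (adjusted p = 0.901).

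Bin1 gave the smallest p of the 10 genes in LPS against Sham. Its Sham samples lay between 13.23 and 13.46 with a median of 13.36, and the LPS samples had 13.02, 12.95, 13.05, 12.82 and 12.76. The groups did not overlap. Bin1 differed by -0.43 (SE 0.062, adjusted p = 5.51e-05), 1.35-fold lower, and the adjusted p stayed between 4.02e-05 and 0.000346 when any 1 of the 23 libraries was left out. P2ry13, Gpr34 and Tgfbr1 also remained called in LPS against Sham without any 1 library.

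Tmem119 had the largest mean difference between LPS and Sham, -0.46 (SE 0.18), but also the widest spread, and it did not pass the test (adjusted p = 0.0819). Its Sham samples ranged from 11.97 to 13.20 with a median of 12.57, and LPS samples had 12.29, 11.87, 12.50, 11.85 and 11.97. Sham replicates 3 and 4 lay within the range of the LPS group, and without either of them, or without LPS replicate 3, Tmem119 was called, with adjusted p down to 0.0266. Olfml3 had 7.18 to 7.38 in Sham with a median of 7.25, and 7.26, 7.03, 7.19, 6.89 and 7.03 in LPS. The 2 groups overlapped and the difference of -0.18 (SE 0.071) had an adjusted p of 0.0801. Slc2a5 had 13.03 to 13.46 in Sham with a median of 13.13, and 13.08, 13.21, 13.15, 13.003 and 13.15 in LPS. Its difference was -0.05, with a 95% interval from -0.20 to 0.09 (adjusted p = 0.626).

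**Figure D2:**
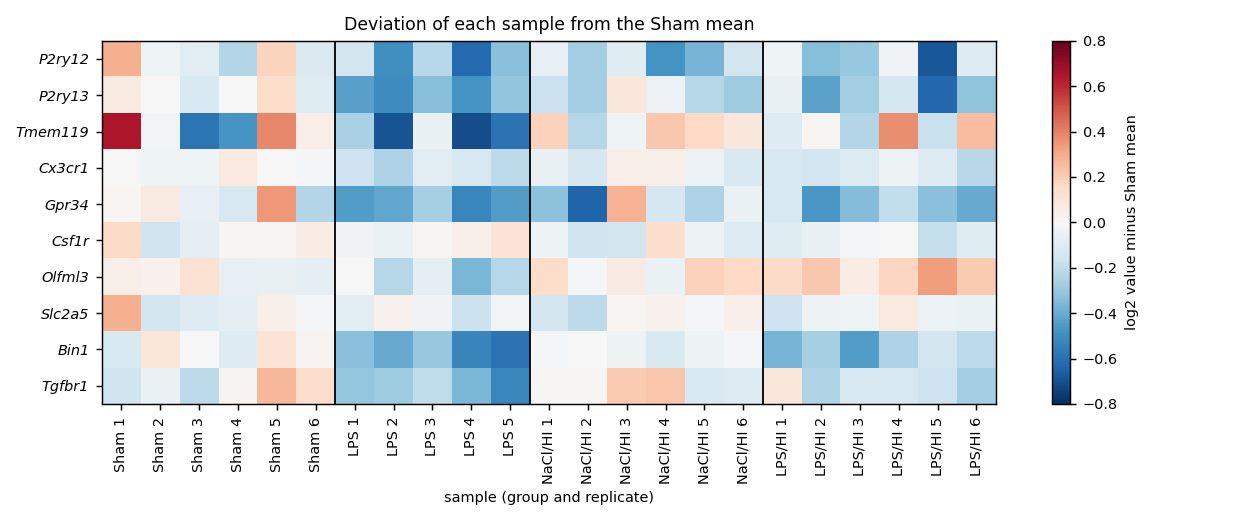
The heat map shows, for each of the 10 genes (rows) in each of the 23 samples (columns), the log2 value minus the Sham mean of that gene, with blue below and red above Sham. The LPS columns are mostly blue, whereas Csf1r and Slc2a5 stay pale in nearly all groups and Tmem119 differs strongly among the Sham samples.

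Sample by sample, the mean of the 10 genes minus the Sham mean ran from -0.12 to 0.14 in Sham, from -0.38 to -0.16 in LPS, from -0.19 to 0.04 in NaCl/HI and from -0.21 to -0.02 in LPS/HI. All 5 LPS samples were thus below the lowest Sham sample, while both HI groups overlapped with Sham. Below the Sham range were 4 to 9 of the 10 genes in an LPS sample, 0 to 6 in an NaCl/HI sample and 3 to 6 in an LPS/HI sample, while of all genes 21.9% to 28.4% were so in LPS and 15.2% to 26.3% in both HI groups.

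Markers of other states and cells moved with LPS as well, where 10.2% of all genes were called higher and 7.56% lower than in Sham. Of 8 genes of the cell cycle, 5 rose, among them Mki67, a protein of dividing cells, by 0.61 (adjusted p = 0.000148) and Top2a, a topoisomerase of replicating cells, by 0.69 (adjusted p = 9.52e-06). The mean of the 8 genes ran from 11.47 to 11.79 in Sham and from 11.86 to 12.29 in LPS. Of 8 genes of border macrophages 1 rose and 2 fell, and both Mrc1, at -0.50 (adjusted p = 0.0327), and Lyve1, at -0.83 (adjusted p = 3.39e-05), were lower. The mean of these 8 genes ran from 10.41 to 11.08 in Sham and from 10.34 to 10.62 in LPS. Among 12 general microglia and macrophage markers 4 rose, including C1qa by 0.29 (adjusted p = 0.0156) and C1qb by 0.28 (adjusted p = 0.0185), and 2 fell. The part of these changes in the lower values of the 10 genes was not tested.

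HI after saline changed none of the 10 genes against Sham in the limma test. Of all genes tested 0.00985% were called higher and 0% lower in this comparison, so it called very few genes of any kind. P2ry12 alone had an unadjusted p under 0.05, as did 14.8% of all genes, and the exact Wilcoxon rank-sum test called 0 of the 10 and 0 of all genes. The median difference of the 10 genes was -0.05. P2ry12 in NaCl/HI ranged from 13.65 to 14.06 with a median of 13.91, all 6 samples being below the Sham mean of 14.12 and 3 of them inside the Sham range. Its difference was -0.24, with a 95% interval from -0.48 to -0.0026 (adjusted p = 0.332).

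P2ry13, Gpr34 and Cx3cr1 overlapped with Sham after HI, with most samples below the Sham mean. P2ry13 ran from 12.14 to 12.51 with a median of 12.23, and Gpr34 from 12.69 to 13.61 with a median of 13.14. Gpr34 had its widest spread here, with NaCl/HI replicate 2 below all other samples and replicate 3 above all but 1 of them. Cx3cr1 lay between 15.49 and 15.68 with a median of 15.58 and overlapped with Sham. For P2ry13, Gpr34 and Cx3cr1 the differences from Sham were -0.15, -0.19 and -0.04, with adjusted p of 0.391, 0.444 and 0.705.

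Bin1 and Tgfbr1, which were lower with LPS, stayed close to Sham with HI alone. Bin1 ranged from 13.23 to 13.35 in NaCl/HI with a median of 13.32, and its difference from Sham was -0.04, with a 95% interval from -0.16 to 0.08. Tgfbr1 ranged from 13.47 to 13.82 with a median of 13.61, at a difference of 0.04 with an interval from -0.14 to 0.21. Both genes overlapped with Sham. Tmem119 lay between 12.33 and 12.77 with a median of 12.68, a narrower range than in Sham. Csf1r lay between 16.33 and 16.63, Slc2a5 between 12.96 and 13.22, and Olfml3 between 7.21 and 7.44, and none of the 3 differed from Sham beyond its spread (adjusted p from 0.591 to 0.774). In the same samples the mean of 12 genes of disease-associated microglia ran from 10.80 to 11.98, against 10.57 to 10.92 in Sham, and 1 of them, Gpnmb, a lysosomal glycoprotein named here after its values were seen, was called higher at 1.02 (adjusted p = 0.035). Without LPS/HI replicate 2, which enters the shared estimate of spread, no gene of the whole table was called in NaCl/HI against Sham, and 2734 had an unadjusted p under 0.05.

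Against NaCl/HI, the LPS group was lower in 3 of the 10 genes, Bin1, Tgfbr1 and Olfml3. Of all genes 3.66% were called lower and 5.32% higher. Bin1 differed by -0.39 (SE 0.062, adjusted p = 0.000365), Tgfbr1 by -0.37 (SE 0.089, adjusted p = 0.0103) and Olfml3 by -0.26 (SE 0.071, adjusted p = 0.0232). Bin1, Tgfbr1 and P2ry13 did not overlap between the groups, as was the case with lower LPS values for 2.52% of all genes, and P2ry13 missed the threshold (-0.26, adjusted p = 0.0593) but passed it without LPS/HI replicate 1 (adjusted p = 0.0416) or 5 (0.0319) in the shared fit and with quantile normalization (0.0453). Tmem119 had the largest difference, -0.53 (SE 0.18, adjusted p = 0.0742), and was called in a fit of the 2 groups alone (adjusted p = 0.0401). The Olfml3 call was lost without any 1 of LPS replicates 2, 4 or 5 or NaCl/HI replicates 1 or 5, with adjusted p between 0.0509 and 0.0799, and in a fit of the 2 groups alone (adjusted p = 0.194). It was also lost with a term for the replicate number (adjusted p = 0.0519). In the exact Wilcoxon test, which called 0 of all genes here, the adjusted p was 0.123 for Olfml3 and 0.0593 for both Bin1 and Tgfbr1. This comparison sets entire brains of 1 pup against pooled hemispheres. It shares its LPS samples with LPS against Sham, so the 2 comparisons are not independent. Of the marker lists, 5 of 12 genes of disease-associated microglia were lower in LPS than in NaCl/HI, with a list median of -0.60, and 4 of 8 genes of the cell cycle were higher, with a list median of 0.21. Among the general microglia and macrophage markers 4 were higher, among them C1qa at 0.33 (adjusted p = 0.0119), and 3 were lower. Their part in the values of the 10 genes was not tested.

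LPS followed by HI lowered 2 of the 10 genes against Sham, Bin1 and P2ry13, where 3.48% of all genes were called lower and 5.3% higher. The median difference of the 10 genes was -0.13, against -0.0024 over all genes. Bin1 in LPS/HI ranged from 12.90 to 13.20 with a median of 13.09, all below the lowest Sham sample, and differed by -0.28 (SE 0.059, adjusted p = 0.00744). Without LPS/HI replicate 2 the Bin1 difference was -0.29 and it stayed called (adjusted p = 0.0174). P2ry13 ranged from 11.79 to 12.37 with a median of 12.12 and overlapped with Sham, at a difference of -0.31 (SE 0.082, adjusted p = 0.0253). Without LPS/HI replicate 2 it was -0.29 and no longer called (adjusted p = 0.0607), so 1 of the 10 genes was called in place of 2, and the same loss followed from leaving out Sham replicate 1 or 5 or LPS/HI replicate 5. The P2ry13 call was also lost in a fit of Sham and LPS/HI alone (adjusted p = 0.0565) and in the exact Wilcoxon rank-sum test (adjusted p = 0.0612).

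The other receptors of the set were lower than Sham in the mean after LPS/HI without passing the test. Cx3cr1 ranged from 15.41 to 15.59 with a median of 15.51 and did not overlap with Sham, as held with lower LPS/HI values for 2.52% of all genes, but its difference of -0.13 had an adjusted p of 0.107 in limma, while the exact Wilcoxon test called it (adjusted p = 0.034). Gpr34 ranged from 12.87 to 13.20 with a median of 12.99, and its difference of -0.31 had an adjusted p of 0.0826. P2ry12 ranged from 13.44 to 14.09 with a median of 13.92, at -0.25 (adjusted p = 0.164). LPS/HI replicate 5 was the lowest sample of all 23 for both P2ry12 and P2ry13. Tgfbr1 ranged from 13.33 to 13.69 with a median of 13.45, at -0.14 (adjusted p = 0.295). Csf1r lay between 16.30 and 16.49, Slc2a5 between 13.01 and 13.25 and Tmem119 between 12.32 and 12.93, and these 3 overlapped widely with Sham (adjusted p from 0.498 to 0.954).

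**Figure D3:**
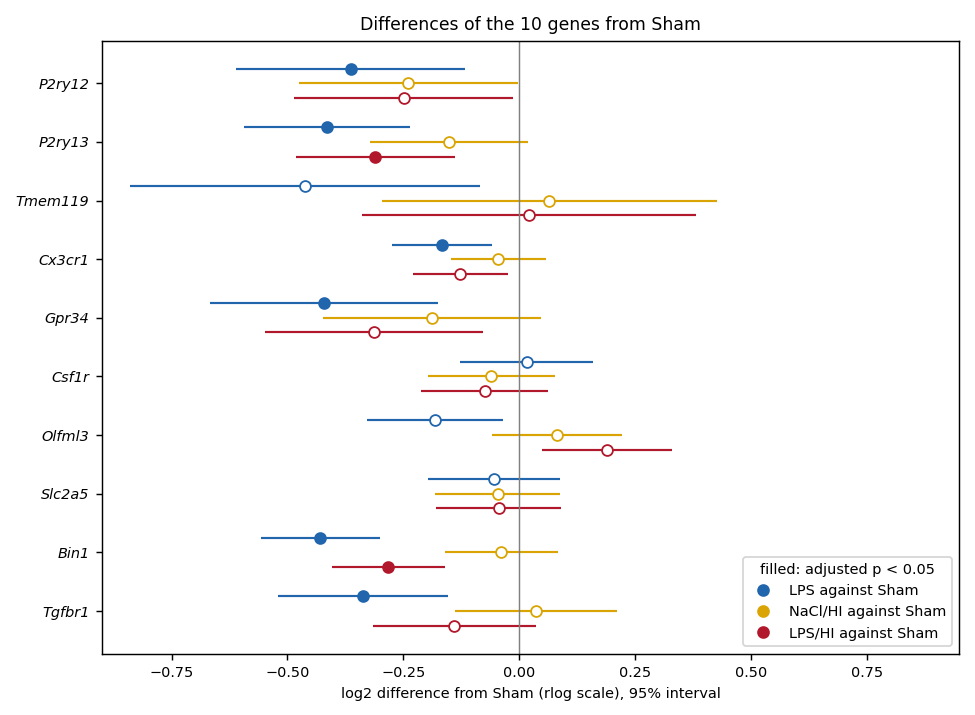
The plot gives the log2 difference from Sham (horizontal axis) of each of the 10 genes in LPS, NaCl/HI and LPS/HI, with the 95% interval of the limma fit as a line and a filled point where the adjusted p is under 0.05. Filled points are 6 for LPS, 0 for NaCl/HI and 2 for LPS/HI, and all of them lie left of 0.

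Olfml3 was the gene of the set that stood higher after LPS/HI. Its 6 LPS/HI samples ran from 7.32 to 7.59 with a median of 7.45, all above the highest LPS sample and all above the Sham mean of 7.26. Against LPS the difference was 0.37 (SE 0.071, adjusted p = 0.0102), 1.29-fold higher, the only call among the 10 genes in this comparison, in which 1.22% of all genes were called higher and 0.719% lower and 2.32% of all genes had LPS/HI values wholly above LPS. Without LPS/HI replicate 2 the difference was 0.37 (adjusted p = 0.0302), and the call held without any 1 library, but it was lost in a fit of LPS and LPS/HI alone (adjusted p = 0.111) and in the exact Wilcoxon test (adjusted p = 0.104, the smallest this test gave for any gene), both of which called 0 of all genes. Against Sham, Olfml3 differed by 0.19 (adjusted p = 0.0798 in limma) and was called by the exact Wilcoxon test (adjusted p = 0.044). The comparison of LPS/HI with LPS again sets pooled hemispheres against entire brains. In it 11 of 12 neutrophil genes had a higher mean in LPS/HI and 1 was called, with a list median of 0.67, and 6 of 6 endothelial genes had a higher mean and 1 was called. Of disease-associated genes 2 of 12 were called higher, and of monocyte genes 1 of 8 was called lower. After LPS/HI replicate 2 was left out, these 4 counts were 0, 1, 0 and 1, and their part in the Olfml3 values was not tested.

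The remaining 9 genes did not pass the test between LPS/HI and LPS. In 8 of these 9 the LPS/HI mean was above that of LPS, Csf1r being the exception at -0.09 (adjusted p = 0.588). Tmem119 had the largest of these differences, 0.48 with a 95% interval from 0.10 to 0.86 (adjusted p = 0.178), and each of its 6 LPS/HI samples exceeded the mean of LPS, 12.10. Tgfbr1 differed by 0.20 (adjusted p = 0.278) and Bin1 by 0.15 (adjusted p = 0.236).

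Between the 2 HI groups, which share tissue and pooling, none of the 10 genes was called, with 0.153% of all genes called higher and 0.0493% called lower in LPS/HI. Bin1 and Tgfbr1 had an unadjusted p under 0.05, as did 10.6% of all genes, and the Wilcoxon test called 0 of the 10 and 0 of all genes. Bin1 was the gene that came closest. All its LPS/HI samples, at most 13.20, lay below all its NaCl/HI samples, at least 13.23, which held with lower LPS/HI values for 0.433% of all genes, and the difference was -0.24 (SE 0.059, adjusted p = 0.0861). Without LPS/HI replicate 2 it was -0.25 (adjusted p = 0.186). Tgfbr1 differed by -0.18 (adjusted p = 0.468) and P2ry13 by -0.16 (adjusted p = 0.518). The other 7 genes had adjusted p between 0.597 and 0.994.

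The interaction of LPS with HI was tested as the difference between the LPS effect in HI pups (LPS/HI against NaCl/HI) and that in sham-operated pups (LPS against Sham). NaCl/HI pups were injected with saline, whereas no injection is listed for Sham. In this estimate an interaction therefore cannot be told apart from an effect of injection, or from the tissue taken and pooling. None of the 10 genes passed this interaction test, in which 0.365% of all genes were called positive and 0.719% negative, and 4 of the 10 had an unadjusted p under 0.05, as did 15.1% of all genes. These 4 were Olfml3 at 0.29 (adjusted p = 0.159), P2ry12 at 0.35 (adjusted p = 0.313), P2ry13 at 0.26 (adjusted p = 0.312) and Bin1 at 0.19 (adjusted p = 0.306). The estimate was above 0 in 9 of the 10 genes, with a median of 0.22 against 0.01 over all genes. None of the 10 was called without LPS/HI replicate 2, where 3 had an unadjusted p under 0.05, and the median was 0.23. P2ry12, for example, differed by -0.36 with LPS in sham-operated pups and by -0.0096 with LPS in pups with HI, while Bin1 differed by -0.43 and -0.24.

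The order of the 4 group means was the same in 5 genes. In P2ry12, P2ry13, Cx3cr1, Gpr34 and Bin1 Sham was highest, followed by NaCl/HI, LPS/HI and LPS. Tgfbr1 had NaCl/HI above Sham and otherwise the same order. Tmem119 ran NaCl/HI, LPS/HI, Sham, LPS, and Olfml3 LPS/HI, NaCl/HI, Sham, LPS. LPS was the lowest group in 9 of the 10 genes and the highest in Csf1r, whose 4 means spanned 16.41 to 16.50. No pair of neighbouring groups in these orders passed the test in any of the 10 genes.

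Within the groups, the 10 genes varied together only loosely. After the 4 group means were subtracted, 34 of the 45 pairs of genes correlated positively over the 23 samples, with a median Pearson r of 0.225 and a range from -0.596, for Csf1r and Bin1, to 0.631. The samples share the removal of variables described above, and the correlations are a description. The genes outside the lists whose deviations were most like the mean of the standardized 10 genes were Ctso, with r = 0.849 and Spearman rho = 0.82, Tmem243 (0.844 and 0.797), Pcmtd1 (0.836 and 0.783), Il7r (0.823 and 0.718) and Lpar6 (0.821 and 0.739), over 23 samples. Without the 2 samples farthest from the median of that mean, r was between 0.771 and 0.895 for these 5 genes. They were picked for the highest r among all genes outside the lists in these same samples, so this range is no independent check.

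The ligands, co-receptors and signalling partners of the set changed in both directions with LPS. Of 40 such genes 39 were measured, and against Sham 12 fell, 6 rose and 21 did not pass the test, with a median difference of -0.09. Of all genes 7.56% were called lower and 10.2% higher in this comparison. Csf1, a ligand of Csf1r, was lower with LPS at 11.05 in the median of the LPS samples (10.92 to 11.40), against 11.60 in Sham (11.42 to 11.70). Its difference was -0.50 (SE 0.12, adjusted p = 0.00468). Il34, the other ligand of the same receptor, moved the other way, from a median of 6.78 in Sham (6.71 to 6.85) to 7.15 in LPS (6.94 to 7.28), at 0.33 (SE 0.077, adjusted p = 0.00505). Neither ligand overlapped between the groups, and Csf1r itself was not called.

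The partner list holds 14 genes of the TGF-β pathway, a grouping made after their values were seen. With LPS 7 of them fell, 0 rose and 7 did not pass the test, with a median of -0.15. Of all genes 7.56% were called lower and 10.2% higher with LPS against Sham. Smad7, the inhibitory SMAD that the pathway itself induces, fell by 0.34 (SE 0.052, adjusted p = 0.000111), from between 10.93 and 11.02 in Sham to between 10.45 and 10.75 in LPS. The other 6 that fell were the ligand Tgfb3 at -0.32 (adjusted p = 0.00237), the receptor Tgfbr2 at -0.19 (adjusted p = 0.0118), the signal transducer Smad3 at -0.27 (adjusted p = 0.00182), the integrin Itgav at -0.24 (adjusted p = 0.032), the inhibitor Skil at -0.21 (adjusted p = 0.0344) and Nrros, which anchors latent TGF-β on microglia, at -0.14 (adjusted p = 0.0313). The 7 not called were Tgfb1, Tgfb2, Tgfbr3, Smad2, Smad4, Ski and Itgb8, with differences from -0.16 to 0.10 and adjusted p from 0.108 to 0.733. Sall1, a transcription factor of microglia identity, fell by 0.25 (adjusted p = 0.00232). P2rx7, an ATP-gated channel, fell by 0.44 (SE 0.089, adjusted p = 0.00182) without overlap, from between 11.61 and 12.05 in Sham to between 11.11 and 11.52 in LPS. Against Sham, NaCl/HI changed 0 of the 39 partners and LPS/HI changed 4, where 8.77% of all genes were called. Pla1a, a phospholipase that makes lysophosphatidylserine, the ligand of Gpr34, was higher in LPS/HI at 0.43 (adjusted p = 0.0419), and Nt5e, which turns AMP into adenosine, at 0.23 (adjusted p = 0.0476). Sall1, at -0.22 (adjusted p = 0.0127), and the transcription factor Mef2c, at -0.19 (adjusted p = 0.031), were lower. With LPS/HI replicate 2 left out, Sall1 was the 1 partner still called (-0.22, adjusted p = 0.03), and Pla1a, Nt5e and Mef2c had adjusted p of 0.09, 0.0827 and 0.066.

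**Figure D4:**
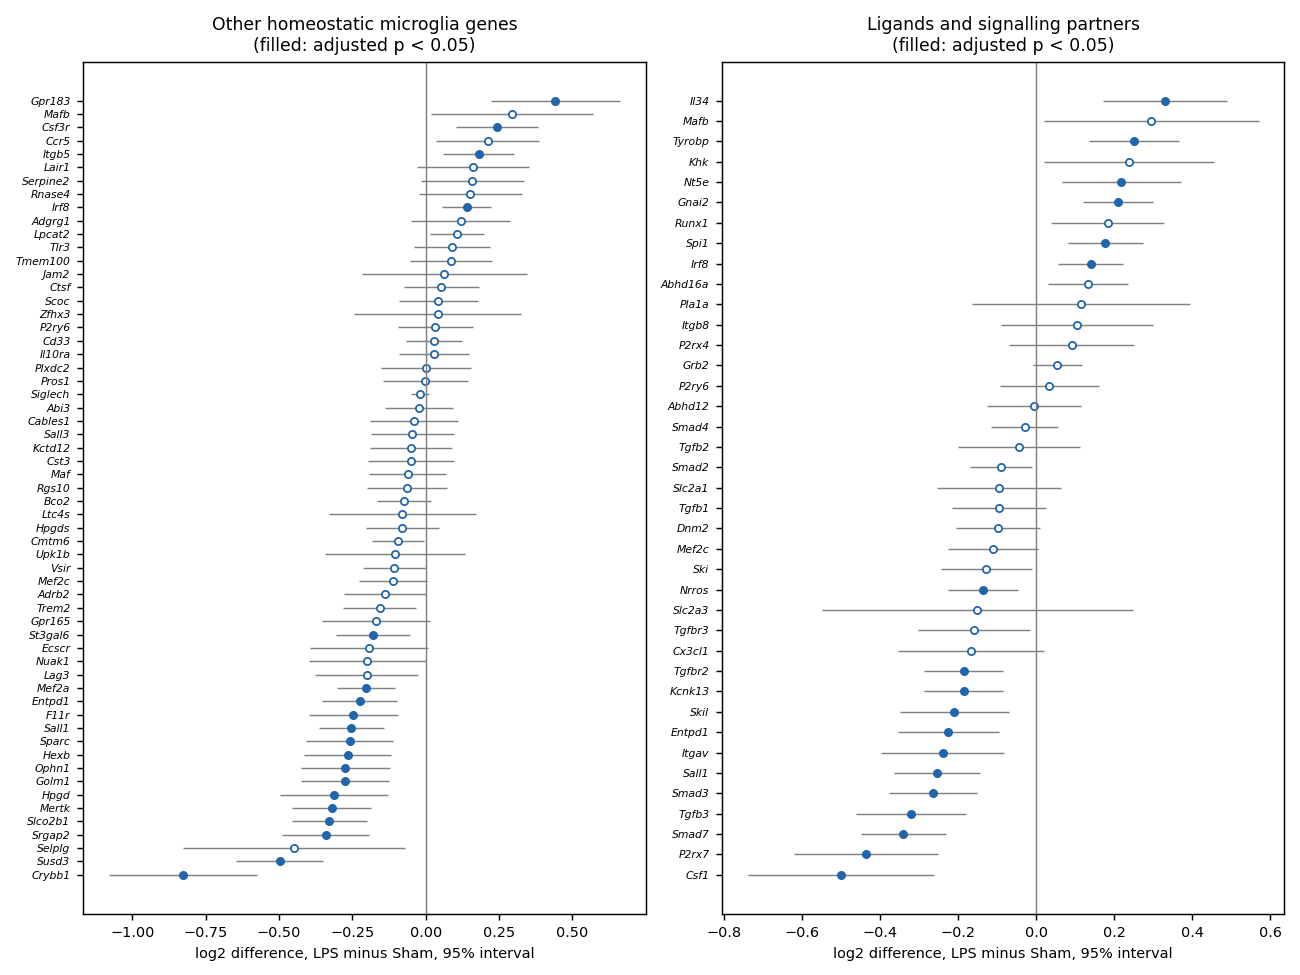
For each gene of the 2 wider lists, other homeostatic microglia genes on the left and ligands and signalling partners on the right, the plot gives the log2 difference of LPS minus Sham (horizontal axis) with its 95% interval, filled where the adjusted p is under 0.05. Some genes are in both lists. Filled points are 4 higher and 15 lower on the left, and 6 higher and 12 lower on the right.

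A wider list of genes known from homeostatic microglia was examined beside the 10, which were left out of it. Of 60 such genes 59 were measured, and with LPS 15 fell, 4 rose and 40 did not pass the test, with a median of -0.06. Of all genes 7.56% were called lower and 10.2% higher with LPS against Sham. Crybb1, a crystallin expressed in young microglia, had the largest difference, from between 6.57 and 7.18 in Sham to between 5.65 and 6.28 in LPS, at -0.83 (SE 0.12, adjusted p = 6.77e-05), 1.78-fold lower. Susd3 fell by 0.50 (adjusted p = 5.92e-05) and Srgap2, a regulator of cell shape, by 0.34 (adjusted p = 0.00221), while Gpr183, a receptor for oxysterols, rose by 0.44 (adjusted p = 0.00627). These 4 genes did not overlap between LPS and Sham. NaCl/HI changed 0 of the 59 against Sham. LPS/HI lowered 10 and raised 3 of them against Sham, where 3.48% of all genes were called lower and 5.3% higher. Crybb1, at -0.50 (adjusted p = 0.0127), and Hpgd, which degrades prostaglandins, at -0.32 (adjusted p = 0.0246), were among the lower. Upk1b, at 0.38 (adjusted p = 0.0347), and Ecscr, at 0.34 (adjusted p = 0.0286), were among the higher. These 13 calls became 5 without LPS/HI replicate 2, all lower. Crybb1 was still called (adjusted p = 0.0267), and Hpgd, Upk1b and Ecscr had adjusted p of 0.056, 0.0735 and 0.0656.

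In LPS/HI, other markers changed beside the 10 genes, where 5.3% of all genes were called higher and 3.48% lower than in Sham. Of 12 neutrophil genes 5 rose against Sham and 0 fell, with S100a9, a calcium-binding protein of granulocytes, at 1.18 (adjusted p = 0.0193), and the mean of the 12 ran from 6.64 to 7.58 in LPS/HI against 6.29 to 6.78 in Sham. Csf3r, another gene of this list, is expressed by microglia as well and was not among the 5. After LPS/HI replicate 2 was left out, 2 of the 12 were called, S100a9 among them (adjusted p = 0.0326). Of 8 genes of the cell cycle 4 rose against Sham with LPS/HI, and 4 without that library, with Mki67 at 0.37 (adjusted p = 0.019) and Top2a at 0.39 (adjusted p = 0.00693). Their mean ran from 11.81 to 11.96 in LPS/HI, above the 11.47 to 11.79 of Sham. Of 8 genes of border macrophages Lyve1 alone fell, at -0.60 (adjusted p = 0.00347, and 0.0085 without that library), with list means from 10.49 to 10.71 in LPS/HI and 10.41 to 11.08 in Sham. The part of these changes in the LPS/HI values of the 10 genes was not tested.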

How the data were processed

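RNA-seq values of CD11b/c-isolated cells from 23 samples were taken from 1 deposited table of log2 values. Per the methods of the study, the authors quantified reads with kallisto 0.48.0, imported them into DESeq2, left out genes with fewer than 10 counts over all samples, transformed the rest by rlog and subtracted 3 surrogate variables found by sva, using limma. Subtracting the group means left 16 dimensions in place of 19. The subtracted variables no longer count in the error between replicates, which can make p-values too small, and values before the subtraction were not used. Groups were assigned by sample title, and 0 columns were left without a sample. No test on counts was run and depth is unknown, so no counting error is given.

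All 6 pairs of groups and the interaction were tested with limma 3.58.1 in R 4.3.3, in 1 fit of all genes with a variance trend and 16 residual degrees of freedom. P-values were adjusted by Benjamini-Hochberg over 20301 genes per comparison and called under 0.05, with no fold threshold and no filter. The fit was tested on simulated data. Plots were made with Python 3.11.15 and matplotlib 3.10.9. Besides the 10 genes, which are all named, up to 4 called genes per list with the largest difference from Sham and the 2 markers of a cell list with the highest mean value, not per length, are named, unless marked otherwise. The 10 genes and all lists were chosen with earlier results of these data known. Lists of monocyte, endothelial, astrocyte, oligodendrocyte, neuron, T and NK cell and erythrocyte markers were summarised too. Promoters and motifs came from RefSeq tables of GRCr8, in which 18619 symbols of the table were found. Counts of partner, marker and all genes without LPS/HI replicate 2, and of all genes under some alternatives, were added after seeing the data. Alternatives are named in the closing section.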

Additional observations from a re-analysis of the deposited data

Results flagged for a closer look

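Of 40 groups of values, 10 genes in 4 groups, 2 held a sample whose gap to its nearest neighbour was large for the range of the group by Dixon's test. Chance flags about 1 in 20 groups. Cx3cr1 in Sham replicate 4 was 15.7, with the next sample at 15.63 and a gap of 0.631 of the range. Bin1 in NaCl/HI replicate 4 was 13.23, with the next sample at 13.31 and a gap of 0.659 of the range. Without Sham replicate 4 the call of Cx3cr1 in LPS against Sham was lost.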

How the results depend on the processing

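No called difference of the 10 genes changed sign under the alternatives run, which with all libraries kept were 12 for each pair of groups and 10 for the interaction, or with 1 of the 23 libraries left out. The main fit called 19 of the wider list in LPS against Sham and 13 in LPS/HI against Sham. It called 3 in LPS/HI against LPS, 15 in LPS against NaCl/HI and 0 between the HI groups. The shares of all genes called in that fit are given in the results above. With a fold change above 2 also required, 0 of the 10 and 0 of the wider homeostatic list were called in LPS against Sham, LPS/HI against Sham, LPS/HI against LPS and LPS against NaCl/HI, where 0.069%, 0.0936%, 0.0345% and 0.0591% of all genes were called. With 19 residual degrees of freedom, 4 of the 10 were called in LPS/HI against Sham, 1 in LPS/HI against NaCl/HI and 5 in LPS against NaCl/HI, and of the wider list 5 in LPS/HI against LPS and 1 in LPS/HI against NaCl/HI, while of all genes 15.2%, 1.2%, 13.3% and 4.96% were called in LPS/HI against Sham, LPS/HI against NaCl/HI, LPS against NaCl/HI and LPS/HI against LPS. In fits of only the groups compared, 1 of the 10 was called in LPS/HI against Sham and 0 in LPS/HI against LPS, and of the wider list 6, 0 and, in LPS against NaCl/HI, 5, where 5.04%, 0% and 2.43% of all genes were called. With array weights, estimated gene by gene because the default did not converge, LPS/HI replicate 2 had a weight of 30.6 against 0.356 to 1.72 elsewhere, and calls rose to 7, 3 and 3 of the 10 and 23, 11 and 8 of the wider list in LPS/HI against Sham, LPS and NaCl/HI, where 37.7%, 15.6% and 9.83% of all genes were called. The exact Wilcoxon test called 8 of the wider list and 9.84% of all genes in LPS/HI against Sham, and 0 of either list in LPS/HI against LPS and LPS against NaCl/HI, where it called 0 of all genes (smallest adjusted p of 0.104 and 0.0593). Quantile normalization left 1 of the wider list in LPS/HI against LPS. The Cx3cr1 call in LPS against Sham was lost with quantile normalization (adjusted p = 0.0751) and median centring (0.0655), and that of P2ry12 with median centring (0.0512) and the exact Wilcoxon test (0.0697). P2ry13 was called in LPS against NaCl/HI without the lowest 25% of genes (adjusted p = 0.0498), with quantile normalization (0.0453) and with 19 degrees of freedom (0.0302). No variance trend, robust variances and a term for library series moved no count by over 1.5 times. The cause of these changes was not tested.

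Same-numbered samples did not deviate together. Of 33 pairs, 9 correlated above 0.1 (range -0.475 to 0.47), and 5 of 23 samples correlated best with their own number. With a replicate block, 6, 0 and 2 of the 10 were called in LPS, NaCl/HI and LPS/HI against Sham, 2 in LPS against NaCl/HI, 1 in LPS/HI against LPS and 0 between the HI groups, and of the wider list 7 in LPS/HI against Sham, 1 in LPS/HI against LPS and 8 in LPS against NaCl/HI. Of all genes the block called 11.2%, 0.00493% and 3.7% against Sham, 5.33% in LPS against NaCl/HI, 0.438% in LPS/HI against LPS and 0.0394% between the HI groups.

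With 1 library left out, calls among the 10 ranged from 4 to 7 in LPS against Sham, 1 to 3 in LPS/HI against Sham and 2 to 4 in LPS against NaCl/HI, stayed at 1 in LPS/HI against LPS, and were 0 in the other comparisons. For the wider list they ranged from 12, without LPS replicate 4, to 19 in LPS against Sham, 4 to 16 in LPS/HI against Sham, 1 to 4 in LPS/HI against LPS and 5 to 15 in LPS against NaCl/HI. In the same fits 11.8% to 19.5%, 3.79% to 12.5%, 0.399% to 2.28% and 5.3% to 9.89% of all genes were called in these 4 comparisons, and 0% to 2.74% in NaCl/HI against Sham.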

Other observations

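Monocyte markers had a mean of 8 genes between 8.37 and 8.82 in Sham and between 8.62 and 9.36 in LPS/HI, where 2 of the 8 rose against Sham. In LPS their mean ran from 8.51 to 8.93 and 1 of the 8 rose, Plac8, at 1.17 (adjusted p = 2.86e-06), named after its values were seen. Fn1 and Vcan, 2 of them, had means over all samples of 13.08 and 11.14. Of 6 endothelial genes, with Pecam1 at 12.35 and Flt1 at 11.45, 1 rose and 2 fell in LPS against Sham, and 1, Pecam1, rose in LPS/HI at 0.17 (adjusted p = 0.0242). Of 6 astrocyte genes, with Slc1a3 at 13.15 and Aqp4 at 11.58, 1 rose in LPS and 1 in LPS/HI. None of 7 genes of the oligodendrocyte lineage passed the test in LPS or LPS/HI against Sham, with Cspg4 at 11.11 and Pdgfra at 10.86. Of 7 neuronal genes, with Map2 at 10.61 and Tubb3 at 8.51, 3 fell in LPS and 2 in LPS/HI. Of 4 T and NK cell genes, with Cd3e at 5.06 and Cd3d at 3.92, 1 rose in LPS/HI. The 3 erythrocyte genes, with Hba-a1 at 10.67 and Hbb at 10.5, passed in neither group, and their mean ran from 8.76 to 10.70 in Sham and from 8.16 to 9.38 in LPS. Of the 12 genes of disease-associated microglia, with Ctsb at 16.02 and Apoe at 15.84, 1 rose and 2 fell in LPS and 2 rose in LPS/HI. In LPS against Sham 10.2% of all genes were called higher and 7.56% lower. Without LPS/HI replicate 2, the counts called in LPS/HI against Sham were 2 of 8 for monocytes, 0 of 6 each for endothelium and astrocytes, 1 of 7 for neurons, 0 of 4 for T and NK cells and 1 of 12 for disease-associated microglia, and 4.16% of all genes were called in place of 8.77%.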
